A study of Mus musculus with 6 samples.

Results

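The genes described here are enzymes and transporters of central carbon metabolism in mouse marrow cells: glucose transporters, hexokinases, glycolytic enzymes, and enzymes of the pentose phosphate pathway, of glycogen and of the TCA cycle with its pyruvate dehydrogenase entry. Members were taken by gene symbol from a list of 40, and each was read from its brightest probe set over the 6 arrays. Of the 40, 36 were measured, among 18193 genes in all. Gpi1, Eno1 and G6pdx were not analysed here, and Gapdh was named only by control features that read between 3.18 and 3.50 log2 units on every array, next to beta-actin control features at 3.12 to 3.77, so it was left out.

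The study had 3 groups of 2 Affymetrix mouse arrays (Mouse430_2) each. MN1VP16 and MN1 cells were GFP-positive marrow cells carrying the gammaretroviral vector pSF91-MN1VP16-IRES-GFP or pSF91-MN1-IRES-GFP. MN1 is a transcriptional cofactor that causes myeloid leukaemia in mice when overexpressed, VP16 names an activator protein of a herpesvirus, and what else the MN1VP16 construct holds is not given. Donor marrow was C57BL/6J, from mice given 150 mg/kg 5-fluorouracil for 4 days. It was stimulated for 48 hours with IL-6, IL-3 and stem cell factor, transduced, transplanted into lethally irradiated syngeneic mice and sorted 4 weeks later. Gr1Mac cells, the control, were marrow cells sorted as Gr1-positive and CD11b-positive, the surface markers of granulocytes and monocytes. The labels repeat the 5-fluorouracil, culture and transduction text for Gr1Mac, so whether these cells were treated, cultured, transplanted or carried a vector is not settled, and no mouse's age is given. Nothing in the labels ties the 2 arrays of a group to different animals, so a p-value here compares arrays. How much of the spread within MN1 and within MN1VP16 is technical was not tested. Promyelocyte and erythroid markers averaged 12.23 and 10.48 log2 units on MN1 array 1, and 10.50 and 11.46 on array 2. Promyelocyte and mast cell markers averaged 12.44 and 10.30 on MN1VP16 array 1, and 13.84 and 8.99 on array 2. The 2 Gr1Mac arrays hold cells of opposite sex, and so of different animals. Xist read 10.44 and 5.83 on them, and the Y-linked Eif2s3y 3.38 and 10.51.

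Glycolysis splits glucose into pyruvate, and phosphofructokinase is its main controlled step. Pyruvate is then reduced to lactate or enters mitochondria through pyruvate dehydrogenase to feed the TCA cycle, while the pentose phosphate pathway takes glucose 6-phosphate to make NADPH and ribose. Neutrophils are known for relying on glycolysis, for storing glycogen and for using NADPH in their oxidative burst, whereas their precursors hold more mitochondria.

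Promoters of 3 members are shown because the CACGTG motif, bound by Myc and its relatives, occurs in them, and because 1 was higher in MN1 than in Gr1Mac cells (Pfkm), 1 lower (Pfkfb3) and 1 not called either way (Ldha). Each runs from 250 bases before to 50 after a RefSeq transcript start (build GRCm38.p6), read 5′ to 3′ on the gene's strand. Capitals mark ACGTG, the core of hypoxia response elements, on either strand, CACGTG included.
Pfkm, chr15:98092339-98092638, plus strand: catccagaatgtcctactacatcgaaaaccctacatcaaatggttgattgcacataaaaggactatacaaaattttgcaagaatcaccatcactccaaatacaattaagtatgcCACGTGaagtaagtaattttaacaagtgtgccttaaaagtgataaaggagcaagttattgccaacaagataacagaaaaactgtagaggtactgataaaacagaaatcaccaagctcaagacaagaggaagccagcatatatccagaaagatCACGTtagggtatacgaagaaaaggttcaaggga
Pfkfb3, chr2:11502041-11502340, minus strand: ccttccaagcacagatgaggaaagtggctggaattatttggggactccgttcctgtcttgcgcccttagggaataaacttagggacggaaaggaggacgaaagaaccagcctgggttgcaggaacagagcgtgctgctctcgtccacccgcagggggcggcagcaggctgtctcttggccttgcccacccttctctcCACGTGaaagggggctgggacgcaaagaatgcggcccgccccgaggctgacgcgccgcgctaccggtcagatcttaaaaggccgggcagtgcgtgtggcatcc
Ldha, chr7:46845554-46845853, plus strand: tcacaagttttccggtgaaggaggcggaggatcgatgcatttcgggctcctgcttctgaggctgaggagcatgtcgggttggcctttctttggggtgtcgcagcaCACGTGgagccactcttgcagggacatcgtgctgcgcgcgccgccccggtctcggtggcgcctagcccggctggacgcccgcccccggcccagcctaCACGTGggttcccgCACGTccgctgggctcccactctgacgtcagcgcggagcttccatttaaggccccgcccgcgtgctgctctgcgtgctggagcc
The Ldha window held 2 copies of CACGTG, and those of Pfkm and Pfkfb3 held 1 each. Pfkm has 4 such windows in the table and Pfkfb3 and Ldha have 2 each, and the windows not shown held no CACGTG. Promoter windows were found for 34 of the 36 measured members. CACGTG occurred in those of 4 members, Ldha, Ogdh, Pfkfb3 and Pfkm, which is 11.8% of the 34, and in 10.2% of all tested genes with a window. ACGTG, which overlaps CACGTG, occurred in 15 members (44.1%), against 26.1% of tested genes. It was present in 3 of the 11 members with a window that were higher in MN1 than in Gr1Mac cells, in 7 of the 13 that were lower and in 5 of the 10 that were not called.

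The correlation across probe sets was 0.981 to 0.990 within groups, 0.949 to 0.972 between MN1VP16 and MN1, 0.953 to 0.963 between MN1VP16 and Gr1Mac, and 0.890 to 0.927 between MN1 and Gr1Mac. Y-linked genes were high on Gr1Mac array 2 and on the MN1VP16 arrays, and Xist on Gr1Mac array 1 and on the MN1 arrays, so sex and vector cannot be told apart between MN1VP16 and MN1. The Mn1 probe set read 3.63 to 4.92 on all 6 arrays and checks nothing about the vectors. Markers of Gr1-positive, CD11b-positive cells, 9 of 10 measured, averaged 13.36 and 13.65 log2 units on the MN1VP16 arrays, 12.28 and 13.11 on the MN1 arrays, and 14.30 and 14.33 on the Gr1Mac arrays, with none of the 9 near background in any group. In Gr1Mac the means of S100a8, S100a9, Camp, Ltf and Ngp were 14.94 to 15.15, close to the highest value on any array, 15.18. Itgam, the gene of CD11b, read 9.44 and 8.88 in MN1VP16, 7.67 and 6.95 in MN1, and 10.95 and 10.92 in Gr1Mac. In MN1 against Gr1Mac the 9 differed by -3.62 to -0.30. Stem and progenitor markers (5 of 5 measured) averaged 8.92 to 9.76 in MN1VP16, 10.68 to 10.90 in MN1 and 5.99 to 6.09 in Gr1Mac, where Cd34, Hoxa9 and Meis1 were at or under 5.84, the reading of Xist on arrays high in Y-linked genes, used here as background. Erythroid markers (7 of 8) averaged 7.89 to 8.82 in MN1VP16, 10.48 to 11.46 in MN1 and 6.82 to 7.02 in Gr1Mac, where Car1 and Rhag lay at that background. Alas2 alone of them had its highest mean in Gr1Mac. It read 8.85 and 7.87 in MN1VP16, 9.11 and 10.39 in MN1, and 10.98 and 9.72 in Gr1Mac. Mast cell and basophil markers (4 of 4) averaged 8.99 to 10.30, 10.63 to 11.51 and 5.01 to 5.91 in the same order, and in Gr1Mac Cpa3 and Fcer1a lay at background. Monocyte and macrophage markers (5 of 5) averaged 10.65 to 11.60, 7.80 to 8.22 and 10.47 to 11.41, with Klf4 at background in MN1. Promyelocyte markers (4 of 4) averaged 12.44 to 13.84, 10.50 to 12.23 and 11.16 to 12.18, and markers of proliferating cells (5 of 6) 11.10 to 11.70, 11.58 to 11.71 and 10.89 to 11.10. Of these 7 lists, all but the promyelocyte one were apart between the MN1 and Gr1Mac arrays, and the monocyte list overlapped between MN1VP16 and Gr1Mac. In MN1VP16, MN1 and Gr1Mac, B cell markers averaged 6.74 to 7.16, 5.06 to 5.56 and 5.38 to 6.26. T and NK cell markers averaged 6.51 to 7.22, 6.24 to 6.49 and 7.20 to 7.27. Megakaryocyte markers averaged 6.84 to 8.42, 7.64 to 8.03 and 6.75 to 6.79. Ms4a1 and Cd2 of these lay at background in every group. The part of these lists in the results below was not tested. In bulk samples such as these, fewer cells of a type and less RNA per cell cannot be told apart.

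Set against Gr1Mac cells, MN1 cells had lower transcript levels of most members of glucose entry, glycogen, the pentose phosphate pathway and lower glycolysis, and higher levels of most TCA cycle members. Of 22 measured members on the sugar side (transport, glycolysis, pentose phosphate and glycogen), limma called 4 higher, 13 lower and 5 neither way, at an adjusted p under 0.05. The 4 higher were Hk1, Pfkl, Pfkm and Tpi1. Of 14 members of pyruvate dehydrogenase and the TCA cycle, 8 were higher, 1 was lower (Idh1) and 5 were not called. Not all of these are enzymes of the mitochondrial cycle: Idh1, lower, and Aco1 and Mdh1, higher, are cytosolic, and Pdk1, higher, inhibits pyruvate dehydrogenase. The median difference was -0.79 log2 units over the sugar side and 0.74 over pyruvate dehydrogenase and the TCA cycle. Over all 36, 12 were called higher and 14 lower, where 17.3% of all tested genes were called higher and 12% lower, 29.3% in all. The median size of a difference was 1.05 log2 units for the 36 and 0.38 for all genes. The members were brighter than most genes, with a median level of 10.85 against 6.51, and RMA compresses differences of dim genes. The 2 arrays of each group did not overlap for 33 members, 16 above and 17 below, where 30.9% of all genes were above and 35.8% below.

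Between MN1VP16 and Gr1Mac cells the median size of a difference was 0.56 log2 units for the 36 and 0.25 for all genes, and 7 members passed the test. The called members were Pdk1, Idh2 and Idh3a, higher in MN1VP16, and Slc2a3, Pfkfb4, Ldhb and Taldo1, lower, which left 29 not called. Of all tested genes, 3.66% were called higher and 2.11% lower in this comparison, 5.77% in all. The arrays did not overlap for 28 members, 12 above and 16 below, against 24.8% and 25.2% of all genes. Both comparisons use the same Gr1Mac arrays. The mean of MN1VP16 lay between those of MN1 and Gr1Mac for 29 of 36 members (80.6%), and for 59% of all genes. A mean falls between more easily where MN1 and Gr1Mac lie further apart. Their median size of difference was 1.05 log2 units for the members and 0.38 for all genes, and the shares were not matched for it.

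**Figure D1:**
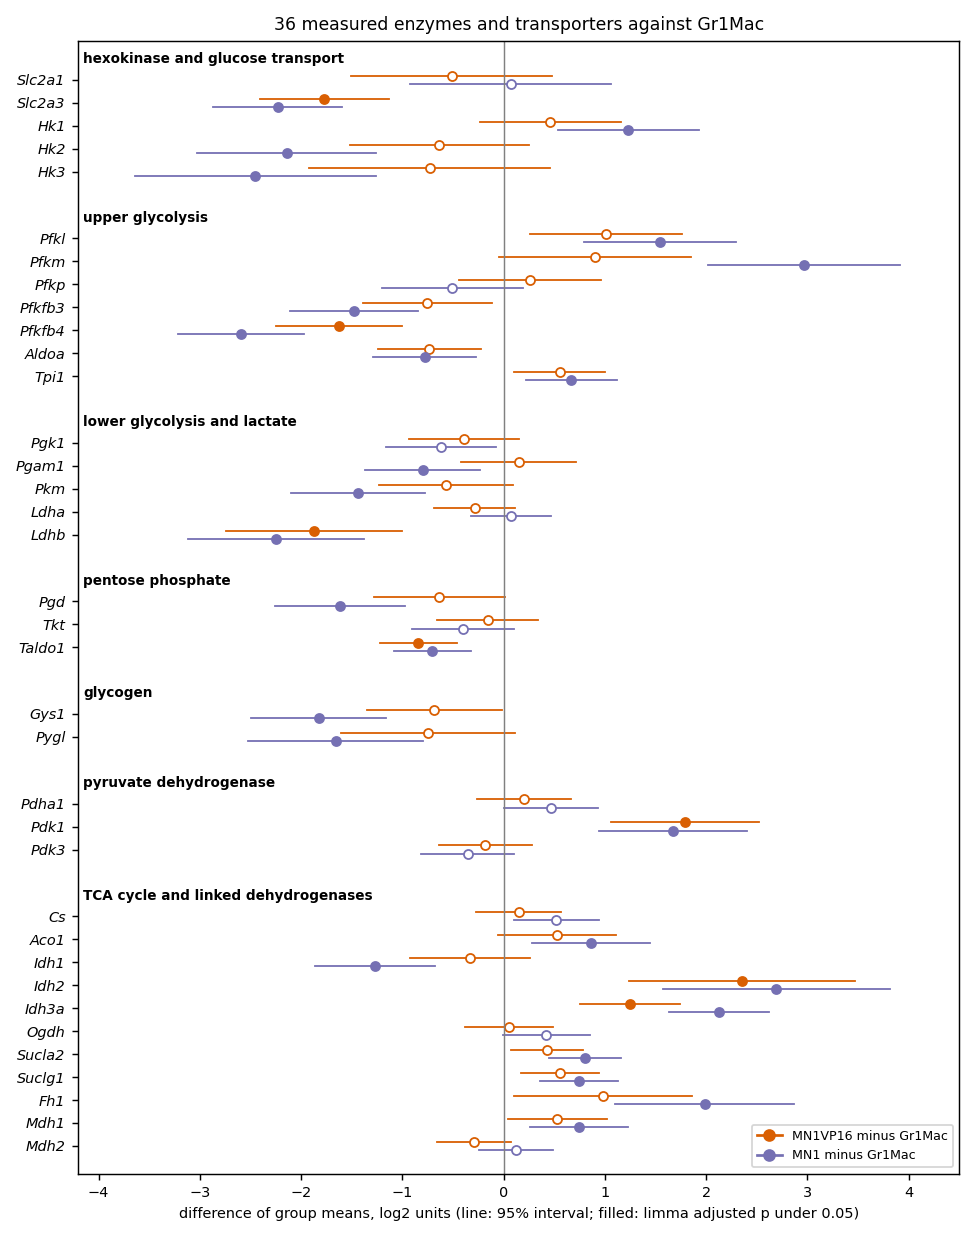
Differences from Gr1Mac in log2 units for the 36 measured members, by pathway step, with MN1VP16 minus Gr1Mac in orange and MN1 minus Gr1Mac in purple. Lines are 95% intervals from limma and filled points have an adjusted p under 0.05. Most glycolysis, pentose phosphate and glycogen members lie left of 0 and most TCA members right of it, with Pfkm at 2.96 the farthest to the right and Pfkfb4 at -2.59 the farthest to the left, both in MN1 minus Gr1Mac.

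Of the glucose transporters, Slc2a3 (GLUT3, a high-affinity carrier) was lower in both vector groups and Slc2a1 (GLUT1, the common carrier) was called in neither. Slc2a3 read 11.77 and 12.09 log2 units in MN1VP16, 11.78 and 11.17 in MN1, and 13.55 and 13.86 in Gr1Mac. The Gr1Mac arrays were above all 4 others. Slc2a3 was 4.69-fold lower in MN1 than in Gr1Mac cells (difference -2.23, SE 0.26, limma adjusted p = 0.00282) and 3.42-fold lower in MN1VP16 (difference -1.77, adjusted p = 0.0258). All 4 of its probe sets had this sign in both vector groups. Slc2a1 read 9.05 and 7.75 in MN1VP16, 8.996 and 8.96 in MN1, and 8.80 and 9.02 in Gr1Mac. Its arrays overlapped, and the difference between MN1 and Gr1Mac was 0.07 (95% interval -0.92 to 1.06).

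The 3 hexokinases, which trap glucose in the cell as its 6-phosphate, did not move together. Hk1, the isoform of most tissues, read 9.94 and 10.70 in MN1VP16, 11.08 and 11.10 in MN1, and 9.66 and 10.05 in Gr1Mac. Hk2, the inducible isoform, read 10.21 and 10.07 in MN1VP16, 9.18 and 8.09 in MN1, and 10.96 and 10.59 in Gr1Mac. Hk3, an isoform abundant in myeloid cells, read 11.61 and 12.70 in MN1VP16, 11.03 and 9.84 in MN1, and 12.83 and 12.94 in Gr1Mac. In MN1 both Hk1 readings were above every other array, and the Hk2 and Hk3 readings were below every other array. Against Gr1Mac, MN1 cells had 2.35-fold higher Hk1 (adjusted p = 0.0220), 4.41-fold lower Hk2 (adjusted p = 0.00780) and 5.48-fold lower Hk3 (difference -2.45, SE 0.49, adjusted p = 0.0133). The log2 ratio of Hk1 to Hk3 was 3.68 higher in MN1 than in Gr1Mac, between 2.94 and 4.43 over the 4 pairs of an MN1 and a Gr1Mac array, and 1.19 higher in MN1VP16 than in Gr1Mac. MN1VP16 passed the test against Gr1Mac for none of the 3 (differences of 0.46, -0.64 and -0.73, adjusted p = 0.400, 0.364 and 0.442).

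Phosphofructokinase commits sugar to glycolysis, and its subunits also split. Pfkm, the muscle-type subunit, read 8.31 and 7.52 in MN1VP16, 9.67 and 10.30 in MN1, and 6.65 and 7.39 in Gr1Mac. Pfkl, the liver-type subunit, read 9.96 and 9.18 in MN1VP16, 10.21 and 10.01 in MN1, and 8.81 and 8.32 in Gr1Mac. Pfkp, the platelet-type subunit, read 9.80 and 9.52 in MN1VP16, 9.16 and 8.63 in MN1, and 9.70 and 9.09 in Gr1Mac. The 3 groups did not overlap for Pfkm, which was highest in MN1, while for Pfkp the MN1 and Gr1Mac arrays overlapped. Pfkm was 7.81-fold higher in MN1 than in Gr1Mac cells (difference 2.96, SE 0.39, adjusted p = 0.00372, 95% interval 4.05 to 15.04-fold), the largest difference upward among the 36. Pfkl was 2.92-fold higher (adjusted p = 0.0133). A second Pfkl probe set differed by 0.96, and another, dimmer one by -0.59. Pfkp differed by -0.51 (adjusted p = 0.250). In MN1VP16 against Gr1Mac, Pfkl and Pfkm were not called, with differences of 1.01 and 0.90 (adjusted p = 0.116 and 0.232).

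Pfkfb3 and Pfkfb4 make and break down fructose 2,6-bisphosphate, the activator of phosphofructokinase, and both were lower in MN1 cells. Pfkfb4 read 9.82 and 9.57 in MN1VP16, 8.99 and 8.46 in MN1, and 11.53 and 11.10 in Gr1Mac. Pfkfb3 read 8.68 and 9.29 in MN1VP16, 8.48 and 8.04 in MN1, and 9.74 and 9.74 in Gr1Mac. For both genes every MN1 array was below every MN1VP16 array, and these were below every Gr1Mac array. Pfkfb4 was 6.04-fold lower in MN1 than in Gr1Mac (difference -2.59, SE 0.26, adjusted p = 0.00188) and 3.09-fold lower in MN1VP16 (adjusted p = 0.0276). Pfkfb3 was 2.78-fold lower in MN1 (adjusted p = 0.00896), and in MN1VP16 it differed by -0.75 (adjusted p = 0.152). The other upper steps moved less. Aldoa (aldolase A) was lower by -0.78 and Tpi1 (triosephosphate isomerase) higher by 0.67 in MN1 (adjusted p = 0.0354 and 0.0407), and neither was called in MN1VP16 (differences of -0.73 and 0.55).

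**Figure D2:**
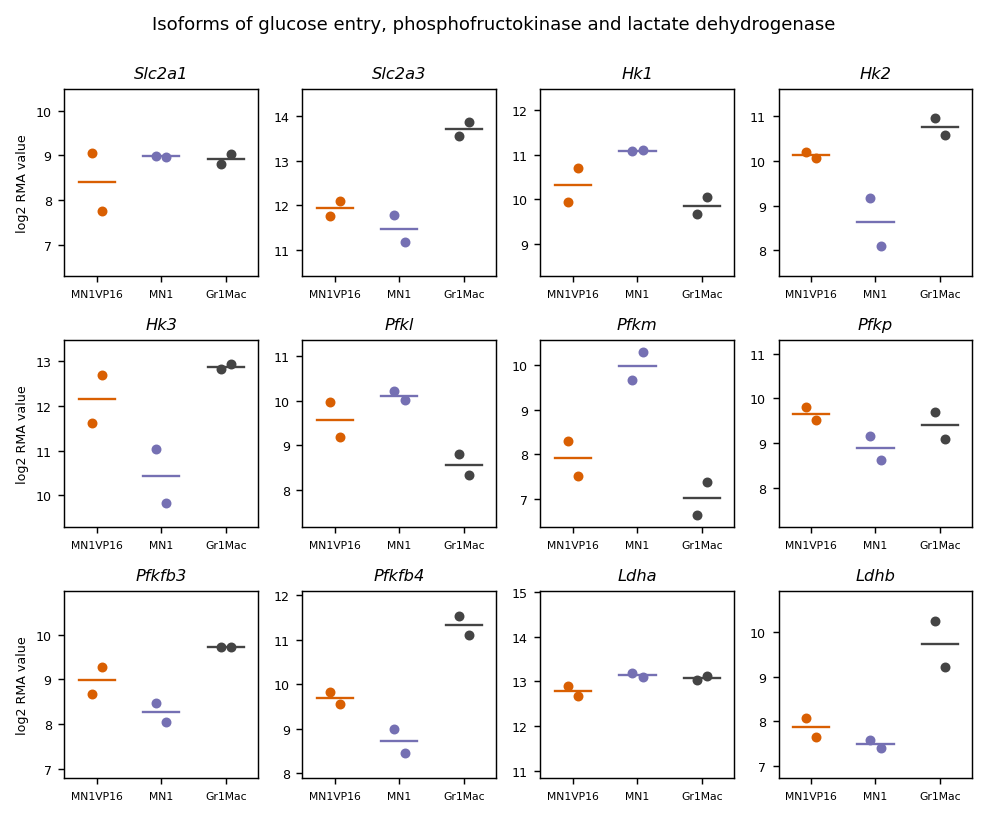
Log2 RMA values on each array (points) with group means (bars) for 12 transporters and isoforms of glucose entry, phosphofructokinase and lactate dehydrogenase, in the order MN1VP16, MN1 and Gr1Mac. Panels have separate vertical axes of equal span. Hk1 and Pfkm are highest in MN1, Hk2, Hk3 and Pfkfb4 are lowest in MN1, and Ldha differs little between groups.

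Lower glycolysis yields ATP, pyruvate and lactate, and 3 of its 5 measured members were lower in MN1 than in Gr1Mac cells. Pkm, the pyruvate kinase of most tissues, whose splice forms were not told apart, read 12.45 and 12.51 in MN1VP16, 11.98 and 11.24 in MN1, and 12.89 and 13.20 in Gr1Mac. It was 2.71-fold lower in MN1 than in Gr1Mac (difference -1.44, SE 0.27, adjusted p = 0.0113). Pgam1 (phosphoglycerate mutase) was lower by -0.80 in MN1 (adjusted p = 0.0479), and Pgk1 (phosphoglycerate kinase) differed by -0.62 (adjusted p = 0.0896), with its second probe set at -1.05. In MN1VP16 these 3 differed from Gr1Mac by -0.57, 0.15 and -0.39, none called.

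The lactate dehydrogenase subunits differed from each other. Ldhb, the heart-type subunit, read 8.08 and 7.65 in MN1VP16, 7.59 and 7.40 in MN1, and 10.26 and 9.22 in Gr1Mac. The Gr1Mac arrays were above the other 4. Ldhb was 4.75-fold lower in MN1 (adjusted p = 0.00641) and 3.66-fold lower in MN1VP16 (adjusted p = 0.0415) than in Gr1Mac cells, and all 4 of its probe sets had this sign. Ldha, the muscle-type subunit, read 12.90 and 12.67 in MN1VP16, 13.19 and 13.10 in MN1, and 13.03 and 13.11 in Gr1Mac. MN1 and Gr1Mac arrays overlapped for Ldha, with a difference of 0.08 (95% interval -0.32 to 0.47, adjusted p = 0.776). The corresponding difference for MN1VP16 was -0.29 (95% interval -0.68 to 0.11).

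The pentose phosphate members were Pgd, which makes NADPH in the oxidative branch, and Tkt and Taldo1, the transketolase and transaldolase of the branch that interconverts sugars. Pgd read 13.50 and 13.63 in MN1VP16, 12.96 and 12.21 in MN1, and 14.17 and 14.23 in Gr1Mac. The 3 groups did not overlap, with MN1 lowest. Pgd was 3.06-fold lower in MN1 than in Gr1Mac (difference -1.61, SE 0.26, adjusted p = 0.00698), and its 4 probe sets had one sign. Taldo1 was lower by -0.70 in MN1 (adjusted p = 0.0194) and by -0.84 in MN1VP16 (adjusted p = 0.0390). Tkt was called in neither (differences of -0.40 and -0.16 for MN1 and MN1VP16). Its second probe set differed by -1.17 in MN1.

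Both glycogen members were lower in MN1 cells. Gys1, the muscle-type glycogen synthase, read 9.68 and 9.49 in MN1VP16, 8.82 and 8.07 in MN1, and 10.15 and 10.39 in Gr1Mac. Pygl, the liver-type phosphorylase that releases glucose from glycogen, read 13.14 and 12.82 in MN1VP16, 12.60 and 11.54 in MN1, and 13.65 and 13.80 in Gr1Mac. For both, the groups did not overlap, and MN1VP16 lay between the others. Gys1 was 3.55-fold lower (adjusted p = 0.00532) and Pygl 3.16-fold lower (adjusted p = 0.0168) in MN1 than in Gr1Mac. In MN1VP16 they differed by -0.68 and -0.75 and were not called (adjusted p = 0.202 and 0.274).

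Pyruvate dehydrogenase turns pyruvate into acetyl-CoA, and its kinases switch it off. Pdk1 read 9.27 and 8.51 in MN1VP16, 8.99 and 8.55 in MN1, and 7.23 and 6.97 in Gr1Mac. All 4 arrays of the vector groups were above both Gr1Mac arrays. Pdk1 was 3.45-fold higher in MN1VP16 (difference 1.79, adjusted p = 0.0318) and 3.19-fold higher in MN1 (difference 1.67, adjusted p = 0.00947) than in Gr1Mac cells, and all 4 probe sets had this sign in both. The kinase Pdk3 differed by -0.18 in MN1VP16 and -0.36 in MN1, and Pdha1, a catalytic subunit of the complex, by 0.20 and 0.47, none called.

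Of the 11 members of the TCA cycle and its linked dehydrogenases, 7 were higher in MN1 than in Gr1Mac cells, with a median difference of 0.74 over the 11. The mean of the 11 was 10.72 and 10.76 log2 units on the MN1VP16 arrays, 11.05 and 11.07 on the MN1 arrays, and 10.37 and 9.97 on the Gr1Mac arrays. Idh3a, the catalytic subunit of the cycle's NAD-linked isocitrate dehydrogenase, read 9.76 and 10.09 in MN1VP16, 10.72 and 10.89 in MN1, and 8.84 and 8.52 in Gr1Mac. The 3 groups were apart, with MN1 highest. Idh3a was 4.38-fold higher in MN1 (difference 2.13, SE 0.20, adjusted p = 0.00176) and 2.38-fold higher in MN1VP16 (adjusted p = 0.0294) than in Gr1Mac. Its other 3 probe sets had this sign in both. Fh1 (fumarase) read 10.48 and 10.43 in MN1VP16, 11.44 and 11.48 in MN1, and 10.05 and 8.90 in Gr1Mac. It was 3.96-fold higher in MN1 (adjusted p = 0.00995), and in MN1VP16 it differed by 0.98 (adjusted p = 0.172). The Gr1Mac arrays of Fh1 lay further apart than those of the other groups.

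Idh2 and Idh1, the NADP-linked isocitrate dehydrogenases of mitochondria and cytosol, went opposite ways in MN1. Idh2 read 10.48 and 10.62 in MN1VP16, 10.99 and 10.79 in MN1, and 8.94 and 7.45 in Gr1Mac. Idh1 read 11.56 and 11.37 in MN1VP16, 10.80 and 10.27 in MN1, and 11.99 and 11.61 in Gr1Mac. For Idh2 the Gr1Mac arrays were below the other 4, and for Idh1 the MN1 arrays were. Idh2 was 6.46-fold higher in MN1 (difference 2.69, SE 0.46, adjusted p = 0.00793) and 5.10-fold higher in MN1VP16 (adjusted p = 0.0437), and Idh1 was 2.41-fold lower in MN1 (adjusted p = 0.0118). The second, dimmer Idh2 probe set had the opposite sign, with differences of -1.22 in MN1 and -0.71 in MN1VP16, so the direction of Idh2 depends on the probe set.

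Cs (citrate synthase), the entry enzyme of the cycle, read 11.81 and 11.50 in MN1VP16, 12.04 and 12.02 in MN1, and 11.56 and 11.45 in Gr1Mac. Both MN1 arrays were above the other 4, but the difference from Gr1Mac of 0.52 was not called (adjusted p = 0.0694). The succinate-CoA ligase subunits Sucla2 and Suclg1 were higher in MN1 by 0.80 and 0.74 (adjusted p = 0.00998 and 0.0170). Mdh1, the cytosolic malate dehydrogenase, was higher by 0.74 and Aco1, the cytosolic aconitase that doubles as an iron sensor, by 0.87 (adjusted p = 0.0364 and 0.0402). Ogdh (oxoglutarate dehydrogenase) and Mdh2, the mitochondrial malate dehydrogenase, differed by 0.42 and 0.12 and were not called. In MN1VP16 only Idh2 and Idh3a of the 11 were called, and the other 9 differed from Gr1Mac by -0.33 to 0.98.

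**Figure D3:**
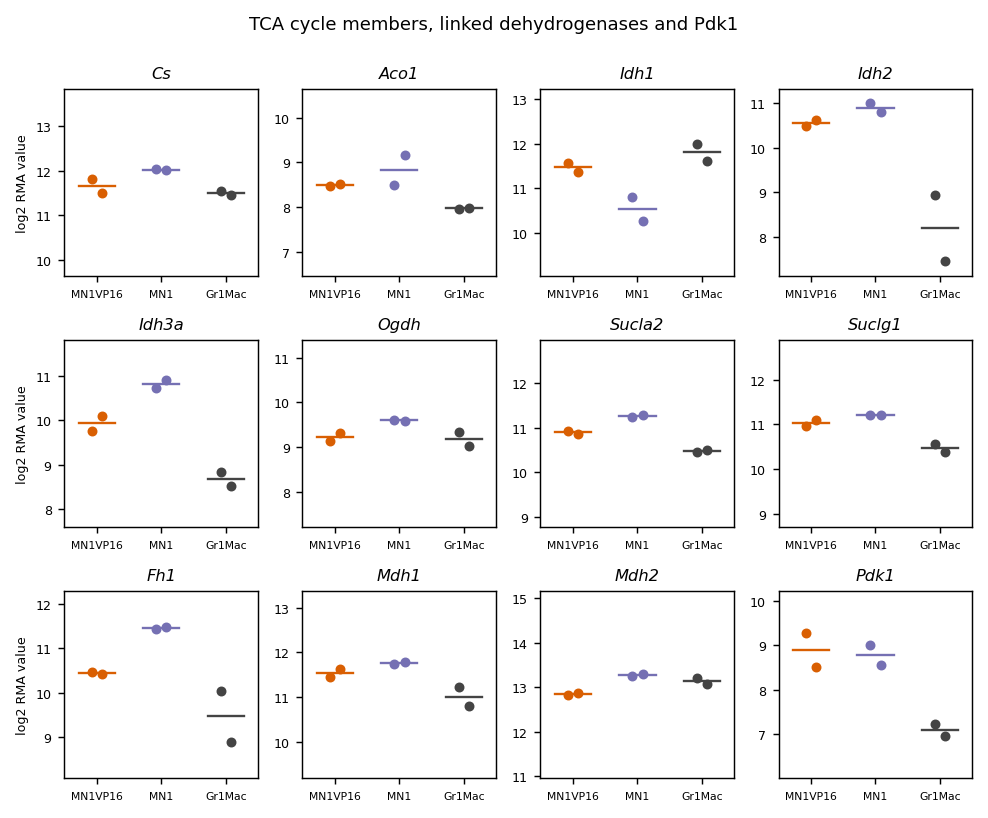
Log2 RMA values on each array (points) with group means (bars) for the 11 TCA cycle and linked members and Pdk1, in the order MN1VP16, MN1 and Gr1Mac. Panels have separate vertical axes of equal span. Idh2, Idh3a, Fh1 and Pdk1 are lowest in Gr1Mac, and Idh1 is lowest in MN1.

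With each of the 6 arrays left out in turn, between 11 and 22 of the 26 calls in MN1 against Gr1Mac remained, with 11 without MN1 array 2 and 14 without Gr1Mac array 2. The calls that passed each time were 9: Pfkm, Idh2 and Idh3a, higher, and Slc2a3, Hk2, Pfkfb4, Ldhb, Pgd and Gys1, lower. Of these, Idh2 has a second probe set of opposite sign. With sex as a block, which compares MN1 with Gr1Mac array 1 alone, 14 of 26 remained. With the arrays split by their control features as a block, 3 remained, Hk1, Pfkfb4 and Idh3a, so 7 of the 9 lost their call. Both MN1 arrays lay together in that split and both Gr1Mac arrays lay opposite, so only the 2 MN1VP16 arrays set the block effect. The block shifts the difference between MN1 and Gr1Mac by the gap between the MN1VP16 arrays and also makes it less precise. Which of these cost the calls was not tested. A technical cause was not tested. In MN1VP16 against Gr1Mac between 0 and 3 of 7 remained with 1 array left out, 0 without MN1VP16 array 1 and 0 without Gr1Mac array 2.

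The 14 members lower in MN1 also differed between its arrays. All 14 read lower on MN1 array 2 than on array 1, by a median of 0.62 log2 units, and their array 2 was the lower one for 9 of 14 in MN1VP16 and 7 of 14 in Gr1Mac. Of the 10 members not called, 8 also read lower on MN1 array 2 (median -0.03), and of all genes 8971 of 18193 did. The markers of Gr1-positive, CD11b-positive cells averaged 12.28 on MN1 array 2 and 13.11 on array 1, and the erythroid markers 11.46 and 10.48. The promyelocyte markers lay further apart, at 10.50 and 12.23, and the mast cell and basophil markers read 11.51 and 10.63. In MN1 against Gr1Mac, 6 of 9 Gr1-positive, CD11b-positive markers were called lower and 6 of 7 erythroid ones higher. Of all tested genes, 12% were lower and 17.3% higher. No promyelocyte marker was called. Their part in the members' levels was not tested. Among the 12 members higher in MN1, 4 read lower on MN1 array 2.

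**Figure D4:**
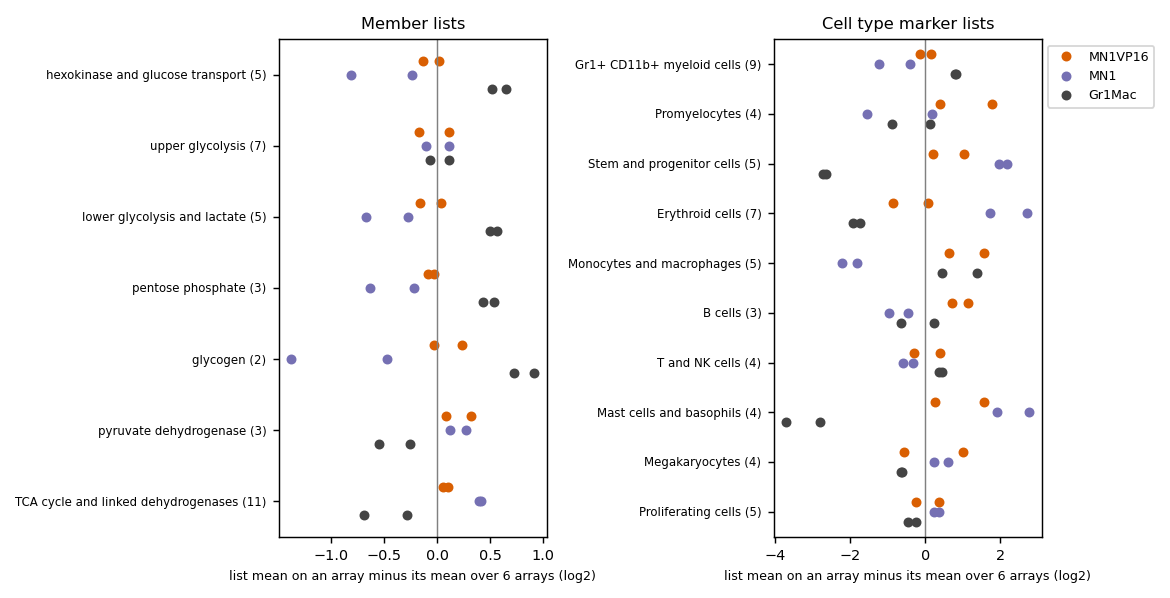
Mean of each member list (left) and each cell type marker list (right) on each array, in log2 units relative to the list's mean over the 6 arrays; the number of genes is in parentheses. Of the member lists, glycogen spreads most between the MN1 arrays, at 10.71 and 9.80, and the TCA cycle least, at 11.05 and 11.07.

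The comparison of the constructs, MN1VP16 against MN1, gave 1 called member. Pfkm was 4.19-fold lower in MN1VP16 than in MN1 cells (difference -2.07, SE 0.39, adjusted p = 0.0484). The call was lost with any of the 6 arrays left out, with adjusted p between 0.0507 and 0.283. Of all tested genes 1.15% were called higher and 2.7% lower, 3.85% in all. The other 35 members were not called, though 17 of the 36 had an unadjusted limma p under 0.05, 11 of them higher and 6 lower in MN1VP16, as did 4091 of all 18193 genes. On the sugar side 15 of 22 differences were above 0, with a median of 0.42, and in pyruvate dehydrogenase and the TCA cycle 3 of 14, with a median of -0.34. The uncalled members nearest to the threshold were Idh3a (-0.88, adjusted p = 0.0719), Gys1 (1.14, adjusted p = 0.0786) and Hk2 (1.51, adjusted p = 0.0800). Hk3 had the largest uncalled difference, 1.72 (95% interval 0.53 to 2.91, adjusted p = 0.110). The arrays did not overlap for 13 members above and 15 below, against 30.5% and 29.2% of all genes.

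Other genes of these pathways, 82 of 90 listed, were measured. In MN1 against Gr1Mac 21 were higher and 12 lower, in MN1VP16 against Gr1Mac 3 and 1, and in MN1VP16 against MN1 2 and 0. Of all tested genes, 17.3% were higher and 12% lower in MN1 against Gr1Mac. The shares were 3.66% and 2.11% in MN1VP16 against Gr1Mac, and 1.15% and 2.7% in MN1VP16 against MN1. No list was tested as a set. The lactate carriers differed among themselves. Slc16a1 (MCT1) read 8.89 and 9.65 in MN1VP16, 10.89 and 10.99 in MN1, and 6.13 and 5.16 in Gr1Mac, whose mean lay at background. It was at least 31.0-fold higher in MN1 (adjusted p = 0.00117) and at least 9.75-fold higher in MN1VP16 (adjusted p = 0.0140). Slc16a3 (MCT4), the carrier of glycolytic cells, was 4.04-fold lower in MN1 (adjusted p = 0.00800). Slc16a7 (MCT2) was at least 3.99-fold higher in MN1VP16 than in MN1 (adjusted p = 0.0414), with MN1 at background. Of 25 other glycolysis and transport genes 4 were higher in MN1 than in Gr1Mac and 5 lower, among them Pklr, the red cell and liver pyruvate kinase (2.10), Slc2a8, a transporter (1.64), Slc2a6, another transporter (-2.62), and Adpgk, an ADP-dependent glucokinase (-2.42).

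Of 10 other pentose phosphate genes 3 were higher in MN1 than in Gr1Mac and 2 lower, against 17.3% and 12% of all tested genes. Prps1 and Prps2, which make phosphoribosyl pyrophosphate for nucleotides, were higher by 2.70 and 2.49, and Prps2 was also higher in MN1VP16, by 1.67. Dera, an aldolase of deoxyribose phosphate, was higher by 0.70, while H6pd and Rpe, enzymes of the oxidative step in the endoplasmic reticulum and of ribulose phosphate, were lower by -1.09 and -0.95. Of 13 other glycogen genes 3 were lower in MN1, Gbe1 (branching enzyme, -2.60), Ugp2 (UDP-glucose synthesis, -1.80) and Gyg (the glycogenin primer, -1.40), and Pygb, the brain-type phosphorylase, was higher (1.16). Gyg was also 2.07-fold higher in MN1VP16 than in MN1 (adjusted p = 0.0457). Of 7 gluconeogenesis genes 3 were higher in MN1, namely G6pc3, a glucose 6-phosphatase, Pck2, the mitochondrial phosphoenolpyruvate carboxykinase, and Pcx (pyruvate carboxylase). G6pc3 and Pck2 differed by 1.62 and 1.52, and Pcx, with Gr1Mac at background, was at least 1.55-fold higher.

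Of 24 other pyruvate and TCA genes 9 were higher and 2 lower in MN1 than in Gr1Mac, with a median of 0.48. Of all tested genes, 17.3% were higher and 12% lower. Suclg2, the GTP-linked succinate-CoA ligase subunit, read 9.13 and 9.85 in MN1VP16, 10.70 and 10.84 in MN1, and 7.87 and 6.90 in Gr1Mac. It was 10.4-fold higher in MN1 (limma adjusted p = 0.00251) and 4.30-fold higher in MN1VP16 (adjusted p = 0.0363). The succinate-CoA ligase subunits Suclg1 and Sucla2 were also called higher in MN1. Idh3b and Idh3g, the partners of Idh3a, were higher by 1.10 and 0.88, and Dlat, a subunit of pyruvate dehydrogenase, by 1.10; Idh3g was chosen after its value was seen. Got1, the cytosolic aspartate aminotransferase, was lower by -1.65 in MN1VP16 and -1.60 in MN1. Me3, a mitochondrial malic enzyme, was called lower with both means at background. Of 3 glutamine genes Slc1a5, a glutamine carrier, was higher in MN1 (1.59).

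Among 20 measured Myc and hypoxia regulators with their targets outside glycolysis, 3 were higher in both vector groups than in Gr1Mac. Of all tested genes, 17.3% were higher and 12% lower in MN1, and 3.66% and 2.11% in MN1VP16. Mycn and Myc, transcription factors of growth, differed by 5.29 and 4.39 in MN1 and by 4.86 and 2.39 in MN1VP16, and Car9, a hypoxia target, by 1.09 and 1.20. In MN1 4 were lower, with Max, the partner of Myc, at -1.81, Mxi1, which competes with Myc for Max, at -1.35 and Ndrg1, a hypoxia target, at -1.29. Mxi1 was also lower in MN1VP16, by -1.04. Hif1a, the oxygen-regulated factor, read 10.41 and 10.93 in MN1VP16, 10.26 and 9.88 in MN1, and 10.36 and 11.46 in Gr1Mac, and was not called. Myc was 4.01-fold lower in MN1VP16 than in MN1 (adjusted p = 0.0335).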

How the data were processed

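RNA of 6 samples was measured on 1-colour arrays. Per the labels' protocols it was labelled with a 3' IVT kit, so probes read transcript ends. The authors deposited log2 values per probe set made with RMA, per the submitters' processing notes, with no version given. This method quantile-normalises arrays, which hides a change in total RNA, and compresses differences of dim genes. Array medians were 5.36 to 5.43. The number of arrays limits the precision.

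Of 45101 rows, 64 were control features; GEO's platform annotation named 1 gene for 34945 probe sets, and several for 932, which were left out with the unnamed ones. A RefSeq table (GRCm38.p6) matched 34741 by gene number and changed 0 symbols. A gene was read from the probe set brightest on average over the 6 arrays, and 25 members had several. limma 3.58.1 in R 4.3.3 (lmFit, eBayes) was fitted to all 6 arrays with group as the only term (3 residual and 3.03 prior degrees of freedom). p-values were adjusted over 18193 genes by Benjamini-Hochberg, and calls have an adjusted p under 0.05. With 2 arrays a group, no exact permutation test of only the 4 arrays compared can pass 0.05.

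Folds are log2 differences turned linear, with 95% limma intervals. Where the dimmer mean was at or under 5.84 (the highest of Xist on the arrays high in Y-linked genes, chosen after the values were seen), a called gene's fold is a lower bound. For that bound, each reading of the dimmer group under 5.84 was raised to 5.84 before the mean was taken. Replicate numbers did not pair arrays (correlations of deviations -0.046, -0.049 and 0.080). The named genes were the 36 members, with array values for those called by at least 1 log2 unit and for regulated isoforms, and at most 3 called genes per direction of each other list. Members and lists were chosen with earlier results of these data known.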

Additional observations from a re-analysis of the deposited data

How the results depend on the processing

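The 16 alternatives were other arrays, probe sets, scalings, filters, priors and blocks. Sex differed within Gr1Mac only, so sex as a block is not a separate check against Gr1Mac. It lost the same calls as leaving out Gr1Mac array 2 for MN1, and Gr1Mac array 1 for MN1VP16. Every called member kept its direction in all of the 16 alternatives but 1. That 1 used only unmarked probe sets, whose names do not end in _x_at, _s_at or _a_at (25 members). It drops the main Pfkl and Idh2 probe sets, which both end in _a_at. There Pfkl was -0.59 in MN1 against Gr1Mac (limma adjusted p = 0.0511). Idh2 was -1.22 in MN1 (adjusted p = 0.0218) and -0.71 in MN1VP16 against Gr1Mac (adjusted p = 0.200). Only Pfkfb4 and Idh3a, in MN1 against Gr1Mac, were called in every one. For MN1 against Gr1Mac, the 12 higher became 6 with unmarked probe sets, 5 with sex as a block, 2 with the split of the arrays by control features as a block (MN1VP16 array 1 and both MN1 arrays against the rest) and 4 to 10 with 1 array left out. The 14 lower became 9 with sex as a block, 1 with the control split and 7 to 13 with 1 array left out. For MN1VP16 against Gr1Mac, the 3 higher became 0 with only the 4 arrays compared, 1 with the mean of all probe sets, 1 with unmarked ones, 0 with the control split and 0 to 3 with 1 array left out. The 4 lower became 2 with only the 4 arrays, 2 with unmarked probe sets, 1 with sex as a block, 0 with the control split and 0 to 2 with 1 array left out. For MN1VP16 against MN1, the 0 higher (11 at an unadjusted p under 0.05) became 1 with the mean of all probe sets, 1 with 75th percentile centring and 0 to 1 with 1 array left out. The 1 lower became 2 with the mean of all probe sets, 2 with unmarked ones, and 0 with median centring, with sex as a block, with the control split and with the replicate block. Pfkm also lost its call with any 1 array left out and with only the 4 arrays compared, so any lower call there was another member. The cause was not tested, except that fewer arrays or members entered where so named. Replicate numbers do not pair the arrays; the replicate block kept 25 of 26, 6 of 7 and 0 of 1 calls and lost Mdh1, Taldo1 and Pfkm. Centring on the 75th percentile moved the median of all genes by -0.129, -0.047 and 0.082 in the 3 comparisons, and the share of higher among called genes in MN1VP16 against MN1 was 42.4% with it and 29.8% without. Over all genes, 3147 higher and 2187 lower calls in MN1 against Gr1Mac became 1519 to 3103 and 899 to 2097 with 1 array left out, 666 and 384 in MN1VP16 against Gr1Mac became 22 to 1018 and 27 to 225, and 209 and 492 in MN1VP16 against MN1 became 3 to 252 and 23 to 350. By the other alternatives these 6 counts ranged over 914 to 3043, 572 to 2761, 181 to 1018, 166 to 581, 0 to 456 and 0 to 619. An arm left with 1 array is assumed to vary like the others.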
